A study of Rattus norvegicus with 4 samples.

Results

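The genes described here encode the machinery that stores neurotransmitter in synaptic vesicles, fuses the vesicles with the presynaptic membrane and recovers them afterwards. The set of 36 genes was chosen by name, and each gene was read by its brightest probe on a single-colour Agilent rat array. A probe was found for 35 of the 36 genes, and Syp (synaptophysin) was not analysed here. All 35 probes were well above background on all 4 arrays, so none was lost to the filter on dim probes that left 30355 features in the whole table. The series compared control neurons with neurons in which CMTR1, an enzyme that modifies the cap at the start of mRNAs, was knocked down.

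Cortical neurons were taken from Sprague Dawley rat embryos of both sexes at stage E18.5 and grown in neurobasal medium. They were infected with a lentivirus on day 2 in vitro and collected for RNA on day 7. The shCTL group received a virus with a control shRNA, and the shCM1 group a virus with an shRNA against Cmtr1. Each group holds 2 arrays; the series' design text speaks of 2 independent experiments, and the sample titles call the groups siCTL and siCM1. All 4 cultures were infected, so an uninfected level was not part of the comparison, and with 1 shRNA against Cmtr1 a lower Cmtr1 level and any other effect of that shRNA cannot be told apart. Replicate 1 of both groups was hybridised on slide 1 and replicate 2 of both groups on slide 2, per the file headers, and each slide had its own scan. Slide, scan and replicate number are therefore the same split.

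At a nerve terminal, glutamate or GABA is pumped into vesicles, which synapsins hold in a cluster near the active zone. RIM, Bassoon, Piccolo and Munc13 proteins tether and prime vesicles there, and the SNAREs on vesicle and membrane zip together to fuse them when synaptotagmins bind calcium. NSF and the SNAP adaptors then pull the used SNARE complexes apart, and clathrin adaptors, endophilin, amphiphysin and dynamin take the membrane back up.

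Cmtr1 was at 27.7% of its control level in the shCM1 arrays. The control arrays of replicates 1 and 2 had levels of -1.43 and -1.86, and the knockdown arrays -3.46 and -3.53. A level here is the log2 of the signal relative to the array's own 75th percentile, and a difference is shCM1 minus shCTL on that log2 scale. The groups were compared with limma over all features, in a plain fit and in a fit blocked by slide. Without the block 0 of 30355 features had an adjusted p under 0.05 (0%, with 909 at an unadjusted p under 0.05). With the block 2047 did (6.74%), 1123 higher (3.7%) and 924 lower (3.04%). Below, a gene is said to have risen or fallen only if it passed the fit with the block, and no gene passed without it. The 75th percentile signal ranged from 596.3 to 754.5, and 84.0% to 90.4% of the probes on an array exceeded background clearly by the scanner's flag. The median difference over all features was 0.08, so a difference of 0 is already slightly low on this scale. The scaling also sets the balance of directions: in blocked fits, quantile normalization gave 366 higher and 580 lower calls, and cyclic loess gave 273 and 466. Normexp background correction gave 618 and 795, and the authors' deposited values 249 and 442, with more lower than higher calls under each of these.

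All 12 neuronal markers examined were well above background on all 4 arrays, as were 10 of 10 astrocyte and 10 of 10 oligodendrocyte lineage markers. Microglial markers were well above background for 15 to 17 of the 18 on the array, of which 17 were tested. Fibroblast and vascular markers were so for 8 to 10 of 10. The same flag marked 84.0% to 90.4% of all probes on an array, so it does not by itself show glial or vascular cells. Summed over 12 genes and in multiples of the array's 75th percentile, neuronal markers were at 580.5 and 473.2 in shCTL and at 549.0 and 408.8 in shCM1. In this list 2 genes fell, Mapt with a difference of -0.46 and Tubb3 with -0.37. Excitatory neuron markers summed to 71.8 and 66.35 in shCTL and to 65.9 and 61.5 in shCM1, and 4 of 12 fell and 1 rose. Inhibitory neuron markers summed to 297.2 and 185.8 in shCTL and to 346.7 and 196.6 in shCM1. In this list 7 of 12 rose, beside 3.7% of all features, and none fell. Sst and Npy, the highest in level and so the largest parts of the sum, did not pass (adjusted p = 0.0757 and 0.934, limma with the block). Npy had differences of 0.20 and -0.23 within the slides, and Calb2 had -0.18 and -0.22 without passing. Microglial markers summed to 3.11 and 2.81 in shCTL and to 4.82 and 3.78 in shCM1, and 9 of 17 rose. Of 10 fibroblast and vascular markers 3 rose, with sums of 1.88 and 2.08 in shCTL and 2.25 and 2.70 in shCM1. Most markers of these last lists, microglial and vascular, were dim, and dim features were on the whole higher in shCM1 under this scaling. They were not set against features of like brightness. Of 10 oligodendrocyte lineage markers 2 rose and 1 fell, of 7 progenitor and cycling markers 1 rose and 3 fell, and of 10 astrocyte markers 0 passed the blocked limma fit, with 1 at an unadjusted p under 0.05. In bulk RNA, fewer cells of a type and less RNA per cell cannot be told apart. The part of these shifts in the differences below was not tested.

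Of the 35 presynaptic genes, 4 fell and 1 rose. That is 14.3% called, beside 6.74% of all features and a mean of 8.24% among features of like brightness, taken for each gene as the 200 features nearest to it in mean level. Nsf, Sh3gl2, Amph and Doc2b were the 4 that fell, and Sv2c was the one that rose. Of the 200 features of like brightness, 0% had a lower difference than Nsf or Sh3gl2, 2.5% than Doc2b and 6% than Amph. For Sv2c 97.5% had a lower difference. The share for Amph was close to the 6.5% for Stx1a, which did not pass. The 30 genes that were not called had differences between -0.29 and 0.26. For 27 of these 30, the 95% interval of the fit with the block lay within a change of 1.5-fold either way. This bound is wide, since the called genes Sh3gl2, Amph, Doc2b and Sv2c also differed by less than 1.5-fold. The intervals rest largely on the variance prior of the blocked fit. Differences were smaller than 1.2-fold for 27 of the 35 genes, beside 20480 of all 30355 features. The median difference over the 35 genes was -0.01, with medians of -0.03 and -0.08 within slides 1 and 2.

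**Figure D1:**
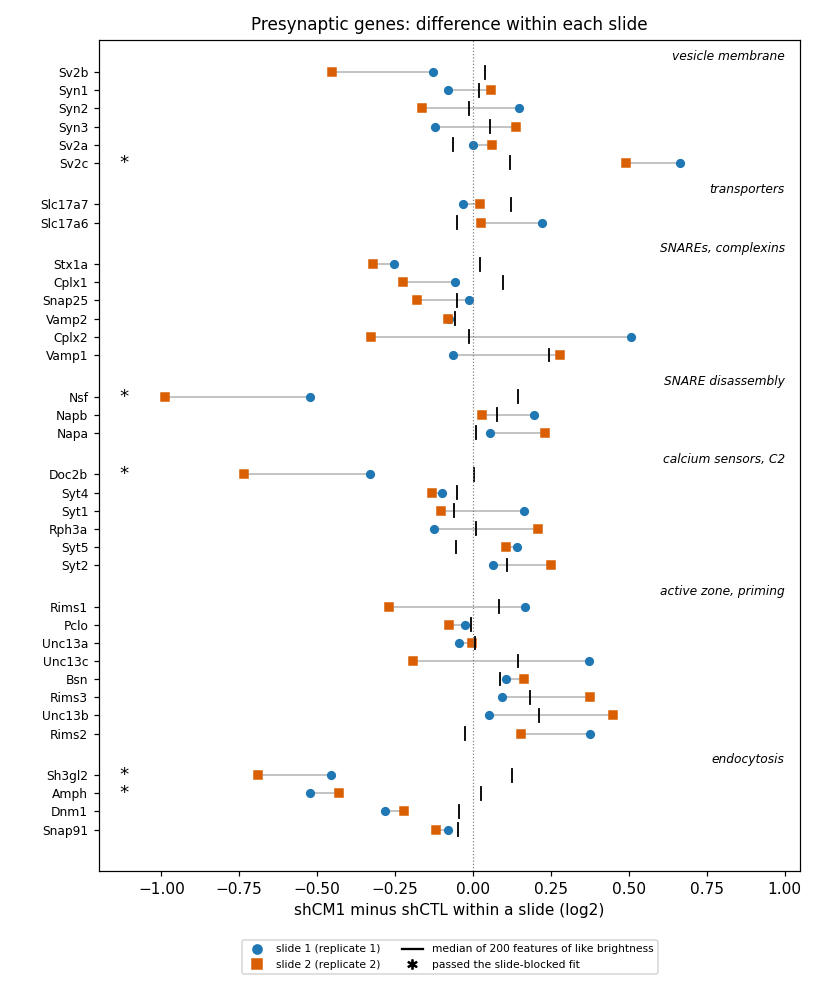
Difference between shCM1 and shCTL (log2, x axis) within slide 1 (circles) and slide 2 (squares) for the 35 presynaptic genes, grouped by role. The black tick is the median difference of the 200 features of like brightness, and an asterisk marks the 5 genes that passed the slide-blocked limma fit; the 4 endocytosis genes lie below 0 on both slides.

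The probes that carry the calls are shown here because each value rests on what 60 bases bind, with the Stx1a probe added as that of a SNARE gene whose groups did not overlap but which did not pass. They are written 5′ to 3′ in lower case as the array design gives them, with rn4 coordinates from the same files, and no part is set in capitals. The Doc2b probe listed first lies at position 1119 of its transcript and is not the brightest of that gene. For the brightest Doc2b probe (position 4169) and for Sv2c (position 2485) only the first 30 of 60 bases are given.
Nsf: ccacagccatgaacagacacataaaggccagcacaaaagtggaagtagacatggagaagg
Sh3gl2: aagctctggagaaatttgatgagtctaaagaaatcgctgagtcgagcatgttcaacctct
Amph: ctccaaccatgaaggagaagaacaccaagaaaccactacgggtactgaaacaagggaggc
Doc2b, position 1119: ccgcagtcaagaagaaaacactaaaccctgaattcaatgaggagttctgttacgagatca
Doc2b, position 4169: cttctcaaaggtgtcctttttaagtcttat
Sv2c: gtggccaagtatcagaactcaaacttttgc
Stx1a: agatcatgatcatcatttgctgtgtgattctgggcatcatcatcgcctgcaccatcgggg

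The Nsf probe is listed at chr10:93012573-93020716 on the minus strand. Its 60 bases span 8144 bases of the genome, so its match is split over exons. The Sh3gl2 probe lies at chr5:104298751-104298810 on the plus strand, the Amph probe at chr17:53572134-53572193 on the minus strand and the Sv2c probe at chr2:26326938-26326997 on the minus strand. The brightest Doc2b probe lies at chr10:63113414-63113473 and the one at position 1119 at chr10:63116877-63116936, both on the minus strand, and the Stx1a probe lies at chr12:22738359-22738418 on the minus strand. The strand is the one on which the design lists the probe. Over all 60 bases, of which 30 are printed, the brightest Doc2b probe had 23.3% G and C, the least of those shown. The other 6 shown had 41.7% to 50% over all 60 bases.

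Of the 3 genes whose proteins take SNARE complexes apart, 1 fell. Nsf encodes the ATPase that unwinds the SNARE complex after fusion, and it was at 59.3% of control. On slides 1 and 2 its level was -1.82 and -2.14 in shCTL, and -2.34 and -3.13 in shCM1; pairs of values below keep this slide order. Both shCM1 arrays were below both shCTL arrays. The difference was -0.75 (SE 0.32 without and 0.15 with the block, n = 2 arrays per group), with -0.52 on slide 1 and -0.99 on slide 2, and the adjusted p was 0.0034 in the limma fit with the block. None of the 200 features of like brightness had a lower difference, and their median was 0.14. The difference was -0.36 without shCM1 replicate 2 and -1.15 without shCM1 replicate 1, in fits without the block.

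The adaptors that load NSF onto the complex did not pass the test. Napa, the alpha-SNAP gene, was at 1.53 and 0.98 in shCTL and at 1.58 and 1.21 in shCM1, a difference of 0.14 (SE 0.10 with the block, adjusted p = 0.405). Napb, the beta-SNAP gene of neurons, was at -1.65 and -1.54 in shCTL and at -1.45 and -1.51 in shCM1, a difference of 0.11 (SE 0.12, adjusted p = 0.632). Both lay above 0 on both slides and their intervals ran from -0.06 to 0.35 and from -0.15 to 0.37. The difference between Nsf and its adaptors was not tested.

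All 4 endocytosis genes were lower on both slides, beside 22.6% of all features and a mean of 35% among features of like brightness (16.5% to 47.5% by gene). The 4 genes were also lower on both slides under the other scalings examined (quantile, cyclic loess, normexp and the authors' table), where 21.7% to 30.1% of all features were. The group's median difference was -0.36, and Sh3gl2 and Amph fell. Sh3gl2 encodes endophilin A1, a BAR protein that bends membrane at the neck of endocytic pits and recruits synaptojanin. It was at 67.2% of control, with levels of -1.95 and -2.10 in shCTL and -2.41 and -2.79 in shCM1, and the groups did not overlap. Its difference was -0.57 (SE 0.14 with the block, adjusted p = 0.016), with -0.46 and -0.69 within slides 1 and 2 and -0.38 without shCM1 replicate 2.

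Amph encodes amphiphysin, the BAR and SH3 protein that brings dynamin to the pit, and it was at 71.9% of control. Its level was -0.27 and -0.97 in shCTL and -0.79 and -1.40 in shCM1. The slides differed more than the groups: shCTL on slide 2 was below shCM1 on slide 1. Within the slides the differences were alike, -0.52 and -0.43, and the adjusted p was 0.016 with the block (limma, difference -0.48, SE 0.12). Because the fit without the block sets arrays of different slides against each other, the value was -0.13 without shCTL replicate 1, -0.17 without shCM1 replicate 2, -0.78 without shCM1 replicate 1 and -0.83 without shCTL replicate 2.

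The other endocytosis genes were lower by less. Dnm1, the neuronal dynamin that pinches vesicles off, was at 2.20 and 2.17 in shCTL and at 1.91 and 1.95 in shCM1. The groups did not overlap, and the difference was -0.25 (SE 0.09 with the block, 95% interval -0.44 to -0.06), which did not pass adjustment over all features (adjusted p = 0.103). The Dnm1 probe was printed in 10 spots on each array, and the SD over spots of one array was between 0.04 and 0.08 on the log2 scale. Snap91, the clathrin adaptor AP180 that sets vesicle size, was at 3.04 and 2.82 in shCTL and at 2.96 and 2.70 in shCM1, a difference of -0.10 (SE 0.09, adjusted p = 0.527).

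**Figure D2:**
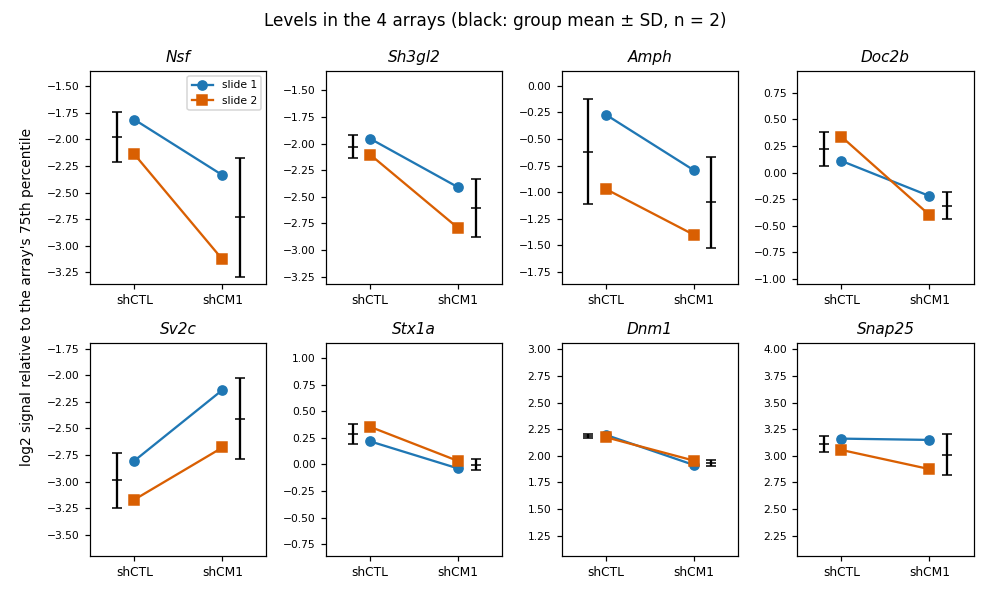
Level in each array (log2 signal relative to the array's 75th percentile, y axis, each panel spanning 2 log2 units) for 8 presynaptic genes, with lines joining the arrays of a slide and black marks for the group mean ± SD of 2 arrays. The lines fall on both slides for Nsf, Sh3gl2, Amph, Doc2b, Stx1a and Dnm1 and rise for Sv2c. They also fall for Snap25, with differences of -0.01 and -0.18. In Amph and Snap25 the slides stand farther apart than the groups.

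Among the calcium sensors and other C2-domain proteins Doc2b fell and the synaptotagmins did not pass. Doc2b encodes a C2-domain protein with high calcium affinity that acts in spontaneous and asynchronous release. It was at 0.11 and 0.34 in shCTL and at -0.22 and -0.40 in shCM1, so both shCM1 arrays were below both shCTL arrays. The difference was -0.53 (SE 0.12 with the block, adjusted p = 0.0081), with -0.33 and -0.74 within the slides, and Doc2b stood at 69.1% of control. Its other probes gave -0.39 and -0.35, lower on both slides, and neither passed the same fit over all probes (adjusted p = 0.194 and 0.0873, against 0.0132 for the brightest). The mean over the 3 probes was -0.43 (adjusted p = 0.0687).

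Syt1, the calcium sensor of fast synchronous release, was at 2.35 and 2.53 in shCTL and at 2.51 and 2.42 in shCM1. Its difference was 0.03 (SE 0.09 with the block), the smallest of the group, with opposite signs on the slides, and its 95% interval was -0.17 to 0.23. Syt2, the fast sensor of hindbrain synapses and some interneurons, was at -1.60 and -2.64 in shCTL and at -1.53 and -2.39 in shCM1, so that the slides differed by far more than the groups. Syt4 had a difference of -0.12, Syt5 0.12, Syt2 0.16 and Rph3a, the gene of the RAB3 effector rabphilin, 0.04. None of these 4 passed (adjusted p from 0.328 to 0.844).

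Among genes of the vesicle membrane and its clustering, 1 of 6 rose, an SV2 gene. SV2 proteins are glycosylated transporter-like proteins of the vesicle, and Sv2c is the form known from the basal ganglia and other subcortical regions. Sv2c was at -2.80 and -3.17 in shCTL and at -2.14 and -2.68 in shCM1, and both shCM1 arrays lay above both shCTL arrays. It was 1.49-fold higher, with a difference of 0.58 (SE 0.15 with the block, adjusted p = 0.0213), 0.67 on slide 1 and 0.49 on slide 2. This call was the least stable of the 5: it was lost with the block after quantile normalization (adjusted p = 0.119), cyclic loess (adjusted p = 0.13) and normexp (adjusted p = 0.053, difference 0.37) and in the authors' table (adjusted p = 0.133), and the difference was 0.31 without shCM1 replicate 1. In the same arrays 7 of 12 inhibitory neuron markers rose, as given above. Slc32a1, the vesicle transporter gene for GABA, had a difference of 0.15 and did not pass (limma with the block, adjusted p = 0.286). A link between Sv2c and these genes was not tested.

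Sv2a, the widely expressed form and the target of the antiepileptic drug levetiracetam, was at 4.23 and 3.98 in shCTL and at 4.23 and 4.04 in shCM1. Its difference was 0.03 (SE 0.08 with the block, interval -0.14 to 0.20). Sv2b, enriched in excitatory neurons of the forebrain, was at -0.47 in shCTL and -0.92 in shCM1 on slide 2, and lower in both groups on slide 1. Its difference was -0.29 (SE 0.12), with -0.13 and -0.45 within the slides, and it did not pass (adjusted p = 0.154), while its other probe had -0.23. The synapsins, phosphoproteins that tie vesicles into the reserve cluster, had differences of -0.01 for Syn1, -0.01 for Syn2 and 0.01 for Syn3, each with opposite signs on the slides. Syn3, the smallest of the group in size, was at -1.54 and -1.37 in shCTL and at -1.66 and -1.23 in shCM1.

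The vesicular glutamate transporters, which fill the vesicles of excitatory neurons, did not pass. Slc17a6, which encodes VGLUT2, was at 2.00 and 1.92 in shCTL and at 2.22 and 1.94 in shCM1, a difference of 0.12 (SE 0.09 with the block). Slc17a7, which encodes VGLUT1, was at -2.76 and -2.63 in shCTL and at -2.79 and -2.61 in shCM1, a difference of -0.01 (SE 0.15, interval -0.31 to 0.30). On each slide the shCM1 and shCTL arrays lay close for Slc17a7, with differences of -0.03 and 0.02.

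The SNAREs and complexins of the fusion step had no member past the test. Stx1a, the plasma membrane SNARE syntaxin 1A, stood lowest: it was at 0.22 and 0.35 in shCTL and at -0.04 and 0.03 in shCM1, and the groups did not overlap. Its difference was -0.29 (SE 0.11 with the block, adjusted p = 0.105), with -0.25 and -0.32 within the slides, while 10 spots per array had an SD between 0.02 and 0.06. Vamp2, the vesicle SNARE synaptobrevin 2, was at 3.82 and 3.45 in shCTL and at 3.74 and 3.37 in shCM1, with a difference of -0.08 on each slide and an interval of -0.25 to 0.09. Snap25, the other membrane SNARE, had -0.01 on slide 1 and -0.18 on slide 2, and its second probe had 0.08 and -0.15.

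The complexins, which clamp and trigger the assembled SNAREs, were less even. Cplx2 was at 0.56 and 1.17 in shCTL and at 1.07 and 0.84 in shCM1, which is 0.51 on slide 1 and -0.33 on slide 2, while its other probe had 0.00 and 0.08. Cplx1 had a difference of -0.14 (SE 0.13). Vamp1, the synaptobrevin of motor and brainstem terminals, was dim, at -4.78 and -4.62 in shCTL and -4.85 and -4.34 in shCM1, and its probes disagreed, with 0.11 for the brightest and 0.60 for the other.

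None of the 8 active zone and priming genes passed, and their median difference was 0.11, beside 0.08 over all features. On both slides 4 were higher and 2 lower, near the shares of all features, 44% higher and 22.6% lower. Rims2, an active zone scaffold that binds RAB3 and calcium channels, had the largest difference of the group. It was at 0.47 and 0.53 in shCTL and at 0.85 and 0.69 in shCM1, without overlap, a difference of 0.26 (SE 0.10 with the block, adjusted p = 0.134), and its second probe had 0.34. Unc13a, the main Munc13 priming factor of cortical synapses, had the smallest, -0.02 (SE 0.10), with levels of 0.00 and 0.37 in shCTL and -0.04 and 0.37 in shCM1. The giant scaffolds Bsn and Pclo had 0.13 and -0.05.

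The remaining members of this group were dim or split between the slides. Unc13b and Rims3 had 0.25 and 0.23, near the medians of 0.21 and 0.18 among features of like brightness. Rims1 had 0.17 on slide 1 and -0.27 on slide 2, and Unc13c had 0.37 and -0.19. Features at that low brightness were on the whole higher in the shCM1 arrays, as the plot against brightness shows, so a small positive difference there is not set apart from its neighbours.

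**Figure D3:**
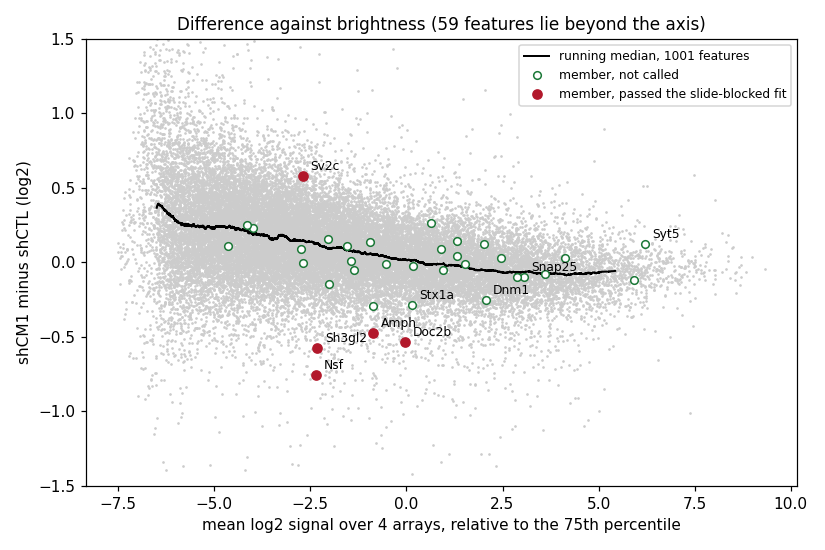
Difference between shCM1 and shCTL (log2, y axis) against mean level over the 4 arrays (log2 relative to the 75th percentile, x axis) for all 30355 features (grey), with a running median (black line) and the 35 presynaptic genes as open or filled circles. The running median lies above 0 for dim features and slightly below 0 for bright ones, and the 5 filled genes stand away from it; 59 features lie beyond the axis at 1.5 either way.

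Counted by direction, 14 of the 35 genes were lower on both slides and 11 were higher on both. Among features of like brightness the mean shares were 30.1% lower and 37.6% higher on both slides, and over all features they were 22.6% and 44%. After quantile normalization the counts were 12 lower and 7 higher, against 9139 and 9573 of all features. The groups did not overlap for 10 of the 35 genes, 6 lower (10.1% of all features) and 4 higher (21.6%), which is near the 31.6% of all features without overlap in either direction. Relative to its own neighbours in brightness the median gene was at -0.03, with 20 genes below the neighbours' median and 15 above. The slides differed from each other by more than the groups did for 25 of the 35 genes, beside 62.7% of all features.

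Several genes were read by more than 1 probe, which checks a value on a different stretch of the RNA. Of 12 genes with 2 or 3 tested probes, only Vamp2 had a probe more than 1.5-fold away from its brightest one. That Vamp2 probe had a difference of 0.52 and was well above background on 2 arrays only. The remaining Vamp2 probe, 298 bases away from the brightest one, had -0.09 beside -0.08.

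**Figure D4:**
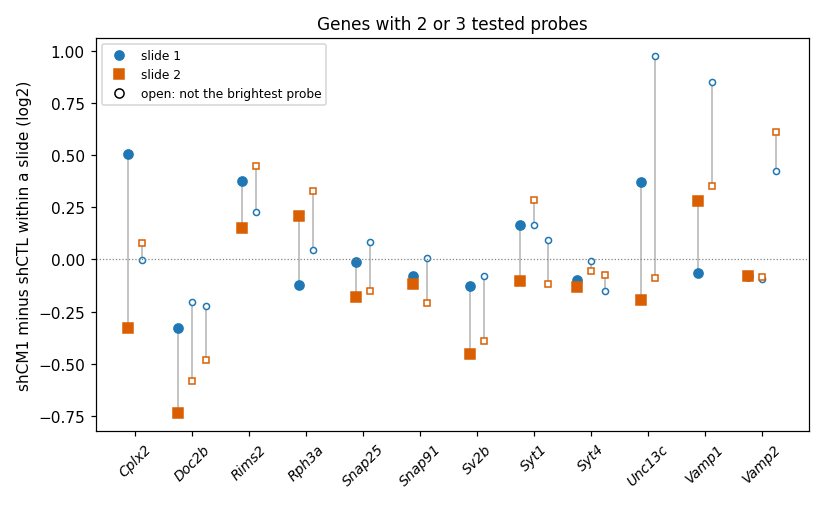
Difference between shCM1 and shCTL (log2, y axis) within slide 1 (circles) and slide 2 (squares) for each tested probe of the 12 genes with 2 or 3 such probes; filled marks are the brightest probe of a gene. The 3 Doc2b probes lie below 0 on both slides, and the probes of Rims2 lie above 0 on both.

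The 4 genes that fell and the one that rose were also read for how often their calls hold. In 9 versions of the slide-blocked limma fit, Nsf, Sh3gl2 and Amph passed in 7, Doc2b in 5 and Sv2c in 3, and the sign never changed. Over all features these versions called 3.12% after quantile normalization, 2.43% after cyclic loess, 4.65% with normexp, 2.28% in the authors' table, 1.07% with no filter, 7.25% with the filter on all 4 arrays, 4.85% with the mean over a gene's probes and 0% without the intensity trend. The versions in which none of the 5 passed were those with no filter on dim probes (adjusted p from 0.0837 to 0.126) and with no intensity trend in the variance prior (adjusted p from 0.254 to 0.261).

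**Figure D5:**
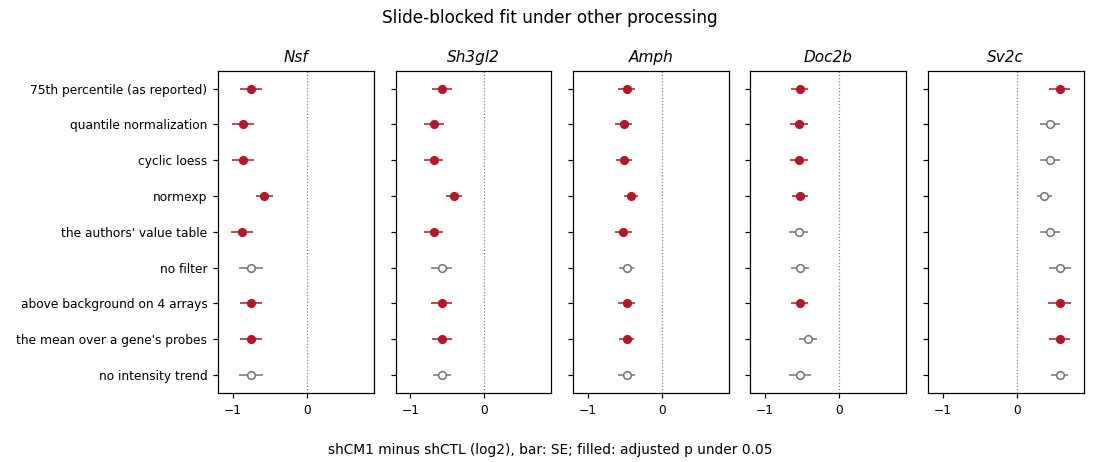
Difference between shCM1 and shCTL (log2, x axis, bar: standard error) for the 5 called genes in 9 versions of the slide-blocked limma fit (rows), filled where the adjusted p was under 0.05. Nsf, Sh3gl2 and Amph are filled in 7 versions, Doc2b in 5 and Sv2c in 3.

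Other genes of the vesicle cycle were taken from a list of 101 named genes, of which 98 were tested. With the block 9 fell and 2 rose, 11.2% in all beside 6.74% of all features, and the list's median difference was -0.06 beside 0.08 over all features. Ston2, the gene of stonin 2, which sorts synaptotagmin into endocytic pits, was at 59.8% of control, with -0.64 and -0.85 within the slides (adjusted p = 6.98e-04 in the limma fit with the block). Cltb, a clathrin light chain, was at 71.1%, with -0.44 and -0.55 (adjusted p = 0.0011). In total 4 of 25 further endocytosis genes fell (3.04% of all features did), the others being Ap2a2 and Dnajc6. Of the 25, 14 were lower on both slides, a share near that of the whole list, 48 of 98, beside 22.6% of all features.

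Outside endocytosis, Cadps, a priming factor of dense-core vesicles, was at 71.3% of control (difference -0.49, SE 0.09 with the block), and Lin7b, a presynaptic scaffold protein, at 69.6% (-0.52, SE 0.11). Doc2a, the paralog of Doc2b, was at 74.2% (-0.43, SE 0.11), with -0.36 and -0.50 within the slides, the same direction as Doc2b on both. Atp6v1h, a subunit of the proton pump that powers vesicle filling, was at 79.0% (-0.34, SE 0.08), and Syt12 was at 67.7%. The genes that rose were Syt10, a synaptotagmin, at 1.54-fold (0.62, SE 0.13) and Snap23, the relative of SNAP25 used widely outside neurons, at 1.36-fold (0.45, SE 0.13). Cltb passed in 8 of the 9 versions of the blocked fit, Cadps, Lin7b and Ston2 in 7, and the others in 2 to 5. No vesicle membrane gene among the 10 in this list passed.

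The promoters of 4 of the 5 called genes are shown next, to set side by side the sequences upstream of genes called in the same arrays. RefSeq promoters of build GRCr8 were matched for 29 of the 35 genes, and Doc2b had no entry. The 100 bases before the annotated start are printed 5′ to 3′ on the gene's strand, with matches to the cyclic AMP response element TGACGTCA and to the GC box GGGCGG, on either strand, in capitals. Nsf lies at chr10:89357384-89357483 (minus strand), Sh3gl2 at chr5:104699170-104699269 (plus), Amph at chr17:50678502-50678601 (minus) and Sv2c at chr2:29163169-29163268 (minus).
Nsf: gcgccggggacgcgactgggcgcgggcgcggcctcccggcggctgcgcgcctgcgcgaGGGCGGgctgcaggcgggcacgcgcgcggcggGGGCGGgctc
Sh3gl2: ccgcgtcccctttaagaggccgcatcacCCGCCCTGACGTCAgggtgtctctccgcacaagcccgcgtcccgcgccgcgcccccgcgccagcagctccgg
Amph: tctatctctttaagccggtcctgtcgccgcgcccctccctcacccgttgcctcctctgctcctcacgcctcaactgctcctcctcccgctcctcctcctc
Sv2c: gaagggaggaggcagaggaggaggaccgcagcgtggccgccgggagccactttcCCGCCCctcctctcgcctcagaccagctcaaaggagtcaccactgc

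Over the full window of 250 bases before to 50 after the start, TGACGTCA was found in 4 of the 29 promoters (Napa, Sh3gl2, Syn1 and Vamp1), beside 1.83% of all 33469 promoters in the table. GGGCGG was found in 20 of 29, beside 33.1% of all, and TATAAA in 0 of 29, beside 14.2%. For each of the 29 genes only the entry with the lowest coordinate was taken. Where a gene has several entries, that is the most upstream start on the plus strand and the most downstream on the minus strand. All 33469 entries were counted as listed. The 33469 were also not limited to genes detected here, so the sets compared are unlike. Of the 4 genes with TGACGTCA only Sh3gl2 fell, and Napa, Syn1 and Vamp1 had differences of 0.14, -0.01 and 0.11. Nsf and Sh3gl2, which fell, and Sv2c, which rose, all hold GGGCGG in this window, and Amph does not.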

How the data were processed

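Total RNA of 4 cultures was amplified and labelled with Cy3 for Agilent arrays of 1 colour, per the labels' protocols. The deposited scanner files hold spot intensity on a linear scale, which the authors obtained with Agilent Feature Extraction 10.7.3.1, background-subtracted and detrended within each array, per the file headers. The authors' value table, linear intensity as deposited, was used as an alternative only; the sources used here do not give its scaling and centring, its column medians were 117.7 and 131.9 for shCTL and 117.6 and 132.0 for shCM1, and its columns and their arrays correlated at 0.9998 or more.

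Marked spots (86 to 98 per array) were left out. Values are means over a probe's spots, as log2 minus the array's 75th percentile. The filter kept probes well above background on 2 or more arrays, and the brightest probe of each gene name in the files represented the gene. limma 3.58.1 in R 4.3.3 was fitted over all 30355 features (eBayes with intensity trend, two-sided, Benjamini-Hochberg), in a plain fit, the stated design, and blocked by slide. The fits were tested on simulated data. Arrays of the same number deviated together from their groups (correlation 0.713), and the first principal component (65.3% of variance) separated the slides. Slides were told apart by the barcodes in the headers and numbered here in their order of appearance. No label says that a slide is 1 experiment. The blocked variance prior held 18.7 degrees of freedom, against 1 left by the arrays. An exact permutation test of 2 against 2 arrays cannot go below 0.33. Precision is limited by having 4 arrays.

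The genes and lists were chosen with earlier results of these data known. Named were Cmtr1, all genes of the presynaptic set and, of the markers past the blocked fit, Mapt and Tubb3. The other markers past that fit were only counted. Up to 6 further presynaptic genes per direction were named, those with the largest smaller within-slide difference. Ap2a2, Calb2, Dnajc6, Npy, Slc32a1, Sst and Syt12 were named after their values were seen. Alternatives were other scalings, filters, probe rules and priors, and leaving out each array. Motifs were searched on both strands.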

Additional observations from a re-analysis of the deposited data

How the results depend on the processing

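The fit without a block called 0 features, 0 presynaptic genes and 0 of the further list under each other scaling, filter, probe rule and prior tried. Leaving out 1 array gave 0 to 1 features, 0 members and 0 further genes, a Cmtr1 difference from -2.07 to -1.64, and a median difference over the 35 genes from -0.0934 to 0.0505. With the replicate block (the slide) 2047 features, 5 members, 11 further genes and Cmtr1 (-1.85) passed in limma. Block with quantile normalization gave 946, 4 and 6 (Cmtr1 -1.97), with cyclic loess 739, 4 and 4 (-1.97), with normexp 1413, 4 and 10 (-1.22), and with the values as the authors scaled them 691, 3 and 4 (-1.98). Block with no filter gave 367, 0 and 2 (Cmtr1 -1.85), with probes above background on all 4 arrays 2025, 5 and 11 (-1.85), and with the mean over a gene's probes 1472, 4 and 5 (-1.85). Block without the intensity trend gave 0 of each, with 5101 features at an unadjusted p under 0.05. The cause of these changes was not tested. Dim probes limit Vamp1, Rims3 and Unc13b, whose signals were the lowest of the set.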

Other observations

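The slides set the level of several presynaptic genes apart in both groups. For 17 of the 35 genes slide 2 was lower than slide 1 in shCTL and in shCM1, and for 10 it was higher in both. The median size of the gap between slides was 0.25 in shCTL and 0.27 in shCM1 on the log2 scale, beside a median size of 0.12 for the difference between groups. Syt2 had the largest such gap in shCTL, with -1.60 on slide 1 and -2.64 on slide 2, and shCM1 followed with -1.53 and -2.39.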
